A study of Mus musculus with 4 samples.

Results

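The genes described here are the 10 members of the AP-1 family that were fixed by name: Jun, Junb and Jund, Fos, Fosb, Fosl1 and Fosl2, Batf and Batf3, and Atf3. They are 10 of the 21937 genes counted by RNA sequencing in splenic CD4+ T cells of B6 mice aged 6 weeks, which had been stimulated with PMA, a phorbol ester, and ionomycin, a calcium ionophore. The 4 genotypes gave 1 library each. They were wild type, Itch KO (a floxed Itch allele with Cd4cre, a recombinase driven by the Cd4 promoter), WWP2 KO (WWP2-/-), and a library labelled DKO, short for a double knockout that takes in both Itch and WWP2. The duration of stimulation, the number of mice behind a library, and the alleles of the double knockout were not found in the labels. The totals lay between 17130747 and 17990392 reads, so depth limited the libraries alike.

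AP-1 is a dimeric transcription factor. Jun proteins pair with each other or with Fos proteins through a leucine zipper, and BATF proteins pair with Jun proteins and bind composite sites together with IRF4. In T cells, calcium signals act through NFAT, while protein kinase C and the MAP kinases induce and activate AP-1. The transcripts of Fos, Fosb, Jun and Junb belong to the immediate early genes, which are induced without new protein synthesis. Itch is a ubiquitin ligase known for binding and ubiquitinating the JUN and JUNB proteins. That is a step at the protein level, and the values below are RNA levels only.

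The label of the double knockout was in doubt. Wwp2 had 1363 reads in the wild-type library, 1332 with Itch KO, 4 with WWP2 KO and 1135 under the DKO label. The directions given for that library therefore belong to a library and not to a known genotype. Itch had between 1914 and 2389 reads in the 4 libraries, and since a count over a whole gene includes exons outside a deletion, it checks neither Itch label. All 8 fixed markers of CD4+ T cells were read in every library, with summed levels of 2172 to 2295 CPM (reads scaled to a common library size with the TMM factors of edgeR). Beneath that steady sum, single markers differed between libraries. In the library labelled DKO, Cd4 stood at 508 CPM and in wild type at 235 CPM, and Cd3g at 167 and 76.1 CPM. Cd5 stood at 295 and 697 CPM in the same order, and Cd28 at 234 and 313 CPM. Itch KO had Cd28 at 217 CPM, lower still, and Zap70 at 550 CPM against 412 CPM in wild type. Of the markers of other cells, Pax5, S100a8, Hba-a1 and Pf4 had 0 reads in all 4 libraries. The 6 macrophage and monocyte markers summed to between 3.85 and 6.98 CPM in 3 libraries and to 20.4 CPM in the library labelled DKO, where Cd68 gave 354 of 379 reads. The 5 dendritic cell markers summed to 5.37 to 15.7 CPM and, in the library labelled DKO, to 23.2 CPM. Xcr1 gave 322 of the 431 reads there, while Flt3 and Siglech had 0. CD8 markers summed to 15.9 CPM in Itch KO and to 6.53 to 7.44 CPM elsewhere. Their part in the results was not tested, and in bulk RNA fewer cells of a type and less RNA per cell cannot be told apart.

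The promoters of 5 members are shown to set side by side the regulatory letters of genes that were higher together in the libraries with an Itch label. They were picked after the values were seen, to cover each branch of the family. Each runs from 250 bases before to 50 after the gene's start in RefSeq, build GRCm38.p6. Capitals mark TGACG (the first 5 bases of a cAMP response element, a site of CREB and ATF factors), TGACATCA (a variant of that element through which JUN can act on its own gene), TATAAA and CCAAT, on either strand. TGACG was added to the search after the sequences were seen.
Fos, chr12:85473640-85473939, plus strand: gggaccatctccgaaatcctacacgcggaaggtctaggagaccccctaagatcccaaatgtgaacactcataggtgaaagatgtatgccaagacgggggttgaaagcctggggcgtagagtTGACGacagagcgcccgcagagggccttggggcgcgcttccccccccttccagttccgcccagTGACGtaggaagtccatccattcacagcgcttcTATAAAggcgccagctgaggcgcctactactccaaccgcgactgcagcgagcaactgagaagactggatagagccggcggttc
Jun, chr4:95052173-95052472, minus strand: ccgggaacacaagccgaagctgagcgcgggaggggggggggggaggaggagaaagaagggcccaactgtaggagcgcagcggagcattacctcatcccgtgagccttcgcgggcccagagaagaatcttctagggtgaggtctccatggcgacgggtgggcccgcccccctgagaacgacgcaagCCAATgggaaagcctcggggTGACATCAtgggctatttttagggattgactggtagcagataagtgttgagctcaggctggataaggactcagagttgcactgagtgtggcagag
Junb, chr8:84978699-84978998, minus strand: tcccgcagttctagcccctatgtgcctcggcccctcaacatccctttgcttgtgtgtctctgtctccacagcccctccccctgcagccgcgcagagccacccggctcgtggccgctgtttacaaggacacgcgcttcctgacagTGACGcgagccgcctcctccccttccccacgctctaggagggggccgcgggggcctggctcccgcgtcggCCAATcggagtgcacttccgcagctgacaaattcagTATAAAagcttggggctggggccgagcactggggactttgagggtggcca
Batf, chr12:85686470-85686769, plus strand: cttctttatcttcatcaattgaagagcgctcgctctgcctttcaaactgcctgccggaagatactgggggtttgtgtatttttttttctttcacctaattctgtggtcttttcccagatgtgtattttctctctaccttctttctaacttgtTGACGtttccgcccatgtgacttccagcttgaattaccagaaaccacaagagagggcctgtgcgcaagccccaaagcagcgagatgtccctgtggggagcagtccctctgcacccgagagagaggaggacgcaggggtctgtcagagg
Atf3, chr1:191183284-191183583, minus strand: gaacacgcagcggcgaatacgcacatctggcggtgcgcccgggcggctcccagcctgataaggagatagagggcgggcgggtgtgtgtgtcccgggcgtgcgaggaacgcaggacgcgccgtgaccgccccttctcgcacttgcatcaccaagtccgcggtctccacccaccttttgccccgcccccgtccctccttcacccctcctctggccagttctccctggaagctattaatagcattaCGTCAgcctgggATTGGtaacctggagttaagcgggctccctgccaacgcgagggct
RefSeq gave such a window for 9 of the 10 members. TGACG was in 5 of them (Fos, Fosb, Junb, Batf and Atf3), and in 20.8% of all 32851 promoter windows. TGACATCA was in the Jun window alone, against 3.62% of all windows. The whole cAMP response element TGACGTCA (1.79% of all windows), the AP-1 site TGAGTCA (5.20%) and the CArG box bound by SRF (1.63%) were in 0 of the 9 windows. TATAAA was in the windows of Fos and Junb (13.6% of all), and CCAAT in those of Jun, Junb and Atf3 (37.4%). Matches on both strands were counted, and none of the capitals overlap another. These are descriptions of letters in a short window, without a measurement of binding. A site more than 250 bases before a start, a CArG box included, would not be seen.

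Across the family, 8 of the 9 members with enough reads to compare were higher in both libraries with an Itch label, Itch KO and the library labelled DKO, than in both libraries without one, a pattern that 24.1% of all 9926 compared genes shared. The summed level of the 10 genes was 1281 CPM in wild type, 1254 CPM in WWP2 KO, 2207 CPM in Itch KO and 2693 CPM in the library labelled DKO. The sum was 1.72-fold the wild-type level in Itch KO (95% counting interval 1.69 to 1.75), 0.979-fold in WWP2 KO (0.961 to 0.998) and 2.10-fold in the library labelled DKO (2.07 to 2.14). A single library per genotype gives no replicate spread, so none of these differences has a replicate check. Intervals cover counting error only, and without molecular identifiers reads cannot be counted as separate molecules.

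**Figure D1:**
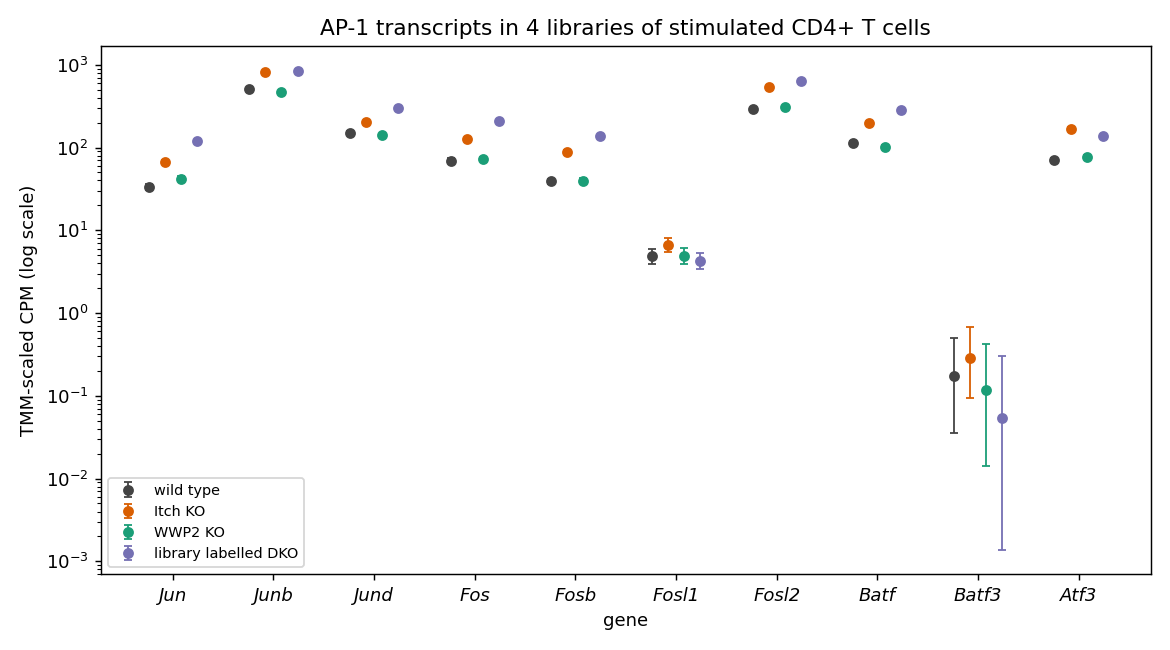
Level of each AP-1 gene in each library, in TMM-scaled CPM on a log axis. Points are single libraries and bars are exact Poisson 95% intervals, smaller than the point for most genes. For all genes but Fosl1 and Batf3, the points of Itch KO and of the library labelled DKO lie above those of wild type and WWP2 KO.

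Members were compared by a size rule in place of a test. A gene passed when its log2 ratio (with a prior count of 2) reached 1 in either direction, its mean was at least 2 CPM, and the 95% interval of its fold, from an exact conditional binomial test, excluded 1. Of the 10 members 9 reached that mean, and Batf3 did not. Fosb, Jun and Atf3, 3 members, were higher by this rule in Itch KO than in the wild-type library and 0 were lower, against 4.89% and 0.846% of the 9926 genes. Fos, Fosb, Fosl2, Jun, Jund and Batf, 6 members, were higher in the library labelled DKO than in the wild-type library and 0 were lower, against 12.3% and 6.34% of genes. In WWP2 KO 0 passed in either direction, against 0.443%. Among the 7914 genes with a mean of at least 10 CPM, which include 8 members, 2.94% were higher in Itch KO and 8.42% in the library labelled DKO, with the same 3 and 6 members. At a rule of 1.5-fold, 7 members were higher in Itch KO (8.79% of all genes) and 8 in the library labelled DKO (20.5%), while WWP2 KO again had 0 (1.94% in either direction).

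Among the Jun genes, Junb, whose protein is a substrate of Itch, had the smallest range over the libraries of the 8 members above 10 CPM. Junb had 8819 reads in the wild-type library, 14056 with Itch KO, 8008 with WWP2 KO and 15843 under the DKO label. The libraries with an Itch label were close to each other, at 810 and 852 CPM, and above the others, at 509 and 467 CPM. Junb was 1.59-fold the wild-type level in Itch KO (1.55 to 1.64), 1.68-fold in the library labelled DKO (1.63 to 1.72) and 0.918-fold in WWP2 KO (0.891 to 0.947). It did not reach 2-fold in any of the 6 pairs of libraries. The gene Prdx2 overlaps Junb on the other strand in the GENCODE M21 annotation, and the strand setting of the counts is not given. Prdx2 had 665, 708, 637 and 882 reads in the same order, against 8008 to 15843 Junb reads.

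Jun, the founding member and a target of the JNK kinases, had 574 reads in the wild-type library, 1161 with Itch KO, 719 with WWP2 KO and 2212 under the DKO label. It was lowest in wild type, and no other member had so wide a range, 1.84 on the log2 scale. Its level was 2.02-fold that of wild type in Itch KO (1.83 to 2.24), 3.60-fold in the library labelled DKO (3.28 to 3.95) and 1.27-fold in WWP2 KO (1.13 to 1.42). Its log2 ratio in Itch KO, 1.01, stood at the edge of the rule. Jund, the Jun gene known for steady expression in resting cells, had 2617, 3522, 2408 and 5629 reads in the same order. Jund was 1.35-fold the wild-type level in Itch KO (1.28 to 1.42) and 2.01-fold in the library labelled DKO (1.92 to 2.10), the latter again at the edge of the rule.

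Among the Fos genes, Fos, the partner of Jun in the classical dimer, had 1208 reads in the wild-type library, 2173 with Itch KO, 1249 with WWP2 KO and 3922 under the DKO label. Wild type and WWP2 KO lay together, and the other libraries lay above them by unequal steps. Fos was 1.80-fold the wild-type level in Itch KO (1.68 to 1.93) and 3.03-fold in the library labelled DKO (2.84 to 3.23). Fosb had 679, 1549, 681 and 2537 reads in the same order. It was 2.28-fold higher in Itch KO (2.08 to 2.50) and 3.49-fold higher in the library labelled DKO (3.20 to 3.80), with WWP2 KO at 1.01-fold (0.911 to 1.13). Fosl2, which encodes FRA2, had 5031, 9353, 5293 and 11953 reads. Fosl2 was 1.86-fold the wild-type level in Itch KO (1.80 to 1.92) and 2.22-fold in the library labelled DKO (2.14 to 2.29).

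Fosl1, which encodes FRA1, was the exception. It had 84 reads in the wild-type library, 116 with Itch KO, 85 with WWP2 KO and 80 under the DKO label, and only Itch KO stood above the rest. Fosl1 was 1.38-fold the wild-type level in Itch KO (1.03 to 1.85) and 0.888-fold in the library labelled DKO (0.646 to 1.22). Its counting intervals were wide at this depth. The gene Ccdc85b overlaps Fosl1 on the other strand, with 315, 268, 261 and 191 reads in the same order. Those are more than the Fosl1 reads in each library, and the strand setting of the counts is not given. The part of the overlap in the Fosl1 counts was not tested.

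Batf, which encodes a factor needed for type 17 and follicular helper T cells and works with IRF4, had 1967 reads in the wild-type library, 3399 with Itch KO, 1749 with WWP2 KO and 5340 under the DKO label. Batf was 1.73-fold the wild-type level in Itch KO (1.63 to 1.83), 0.899-fold in WWP2 KO (0.843 to 0.960) and 2.53-fold in the library labelled DKO (2.40 to 2.67). Batf3, known for its role in cross-presenting dendritic cells, had 3, 5, 2 and 1 reads in the same order, too few for a comparison. Atf3, a stress-induced factor, had 1223, 2943, 1304 and 2536 reads. It was highest in Itch KO, at 2.41-fold the wild-type level (2.25 to 2.57) and 1.93-fold in the library labelled DKO (1.81 to 2.07).

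**Figure D2:**
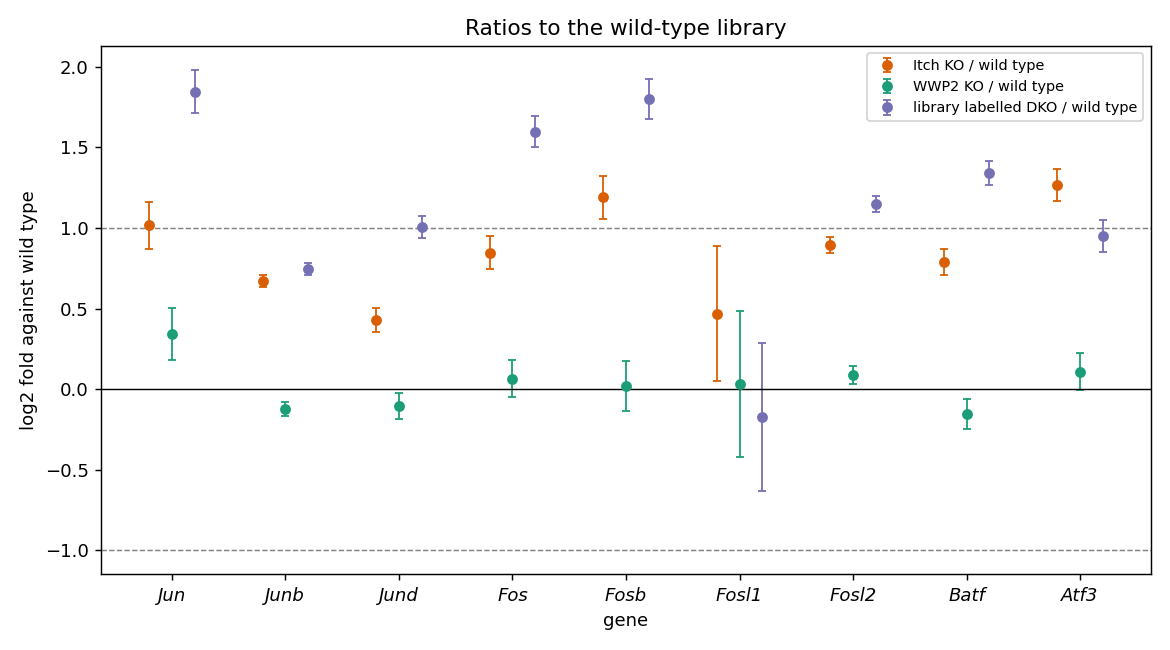
log2 fold of each AP-1 gene against the wild-type library, with exact conditional binomial 95% intervals for counting error. Dashed lines mark a 2-fold difference. Itch KO lies above 0 for all 9 genes shown, WWP2 KO lies between -0.15 and 0.34, and the library labelled DKO exceeds Itch KO except for Fosl1 and Atf3. Batf3, with 1 to 5 reads, is not drawn.

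The design holds a pair of comparisons for the Itch label that share no library, Itch KO against wild type and the library labelled DKO against WWP2 KO. The second pair also differed in Wwp2, with 1135 reads under the DKO label and 4 in WWP2 KO. It is therefore not a comparison of the Itch label alone. In that second pair, 6 members were at least 2-fold higher, against 11.6% of genes. In both pairs, 7 members were at least 1.5-fold higher (Fos, Fosb, Fosl2, Jun, Junb, Batf and Atf3), against 7.10% of the 9926 genes, and 0 were lower, against 2.47%. Only Fosb and Jun were at least 2-fold higher in both, against 4.28% of genes. The size differed between the pairs. For Batf the fold in the second pair was 1.63 times that in the first (counting interval 1.51 to 1.76), for Fos 1.61 times (1.47 to 1.77), for Jund 1.60 times (1.5 to 1.72), for Fosb 1.51 times (1.33 to 1.71) and for Jun 1.4 times (1.23 to 1.60). For Junb it was 1.15 times (1.10 to 1.19) and for Fosl2 1.12 times (1.07 to 1.18). Atf3 went the other way, at 0.746 times (0.679 to 0.820), and so did Fosl1, at 0.629 times (0.415 to 0.952).

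**Figure D3:**
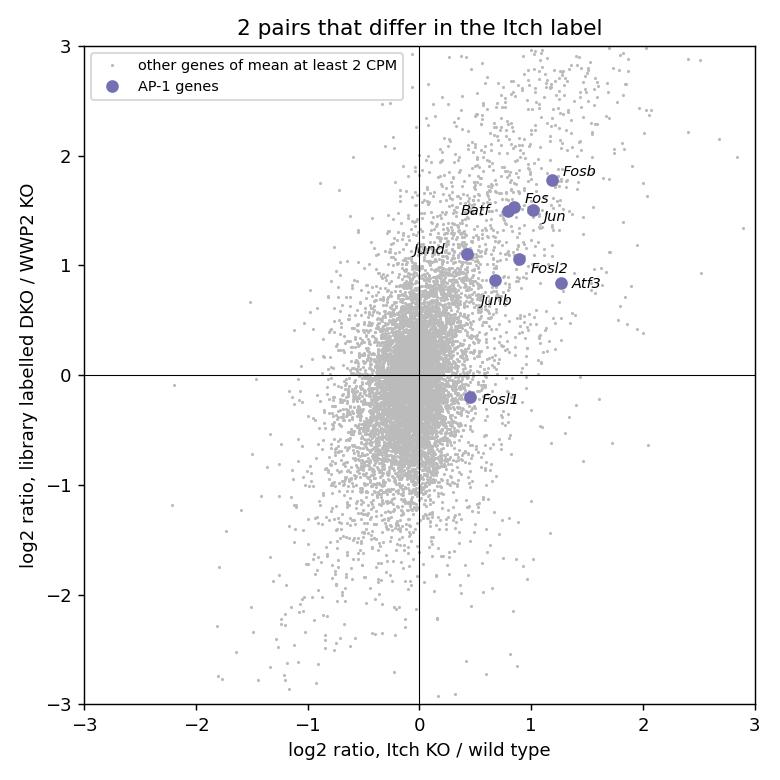
Each gene of mean at least 2 CPM by its log2 ratio in the pair Itch KO against wild type (x axis) and in the pair of the library labelled DKO against WWP2 KO (y axis). AP-1 genes are the large points. Of the 9 AP-1 genes 8 lie above 0 on both axes and Fosl1 lies below 0 on the y axis. Of 9926 genes, 272 lie outside the axes, which end at 3.

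An additive model with terms for the Itch and WWP2 labels was the test the design allowed, with 1 residual degree of freedom. That degree of freedom holds the difference between the pairs above and no spread between replicates. The model also counts the library labelled DKO as lacking WWP2, although it held 1135 Wwp2 reads. Its p-values therefore do not set Itch loss against a spread between replicates. The Itch term was between 0.77 and 1.49 on the log2 scale for 8 of the 9 members tested and 0.13 for Fosl1. By edgeR's quasi-likelihood test with Benjamini-Hochberg adjustment over all 9926 genes, 0 members passed an adjusted p of 0.05, and 1 gene of all did (0.0101%). The adjusted p was lowest for Fosb, at 0.126, 0.132 for Jun, 0.207 for Junb and 0.292 for Jund. At an unadjusted p under 0.05, 8 members were higher, against 9.40% of genes. DESeq2 called 7 of the 9 members in the same design, and 591 of all 9926 genes (5.95%). With genes of low counts kept in, edgeR called 6 of the 10 members, and 542 of 15454 genes (3.51%).

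The pair of comparisons for the WWP2 label, WWP2 KO against wild type and the library labelled DKO against Itch KO, also shares no library, but the Wwp2 reads leave the second without a known meaning. In it 0 members were at least 2-fold apart (14.3% of genes were, in either direction). At 1.5-fold, Fos, Fosb and Jun were higher in the library labelled DKO than in Itch KO, 3 members against 19.5% of genes, and Fosl1 was lower, 1 member against 14.5%. Read against those shares, with 9 members compared, the counts are not a result about the members. Set directly against WWP2 KO, Itch KO had 2 members at least 2-fold higher (Fosb and Atf3), against 4.62% of genes.

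The make-up of the family was read from ratios within a library, which do not depend on scaling. Junb gave 73.4% of the reads of the 3 Jun genes in wild type (exact binomial interval 72.6 to 74.2), 75.0% in Itch KO (74.4 to 75.6), 71.9% in WWP2 KO (71.1 to 72.8) and 66.9% in the library labelled DKO (66.3 to 67.5). The last was the lowest. The share of Jun there was 9.34% (8.97 to 9.72), against 4.78% in wild type (4.40 to 5.18). Junb reads were 15.4 times Jun reads in wild type (14.1 to 16.7), 12.1 times in Itch KO (11.4 to 12.9), 11.1 times in WWP2 KO (10.3 to 12.0) and 7.16 times in the library labelled DKO (6.85 to 7.49).

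Fosl2 gave most of the reads of the Fos genes in each library, 71.9% in wild type (70.8 to 72.9), 70.9% in Itch KO (70.1 to 71.7), 72.4% in WWP2 KO (71.4 to 73.4) and 64.6% in the library labelled DKO (63.9 to 65.3). There the share of Fos was 21.2% (20.6 to 21.8), against 16.5% to 17.3% elsewhere. Batf and Atf3 stood in different ratios in the libraries with an Itch label. Batf reads were 1.15 times Atf3 reads in Itch KO (1.10 to 1.21) and 2.11 times in the library labelled DKO (2.01 to 2.21), with 1.61 times in wild type (1.5 to 1.73) and 1.34 times in WWP2 KO (1.25 to 1.44) between them.

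**Figure D4:**
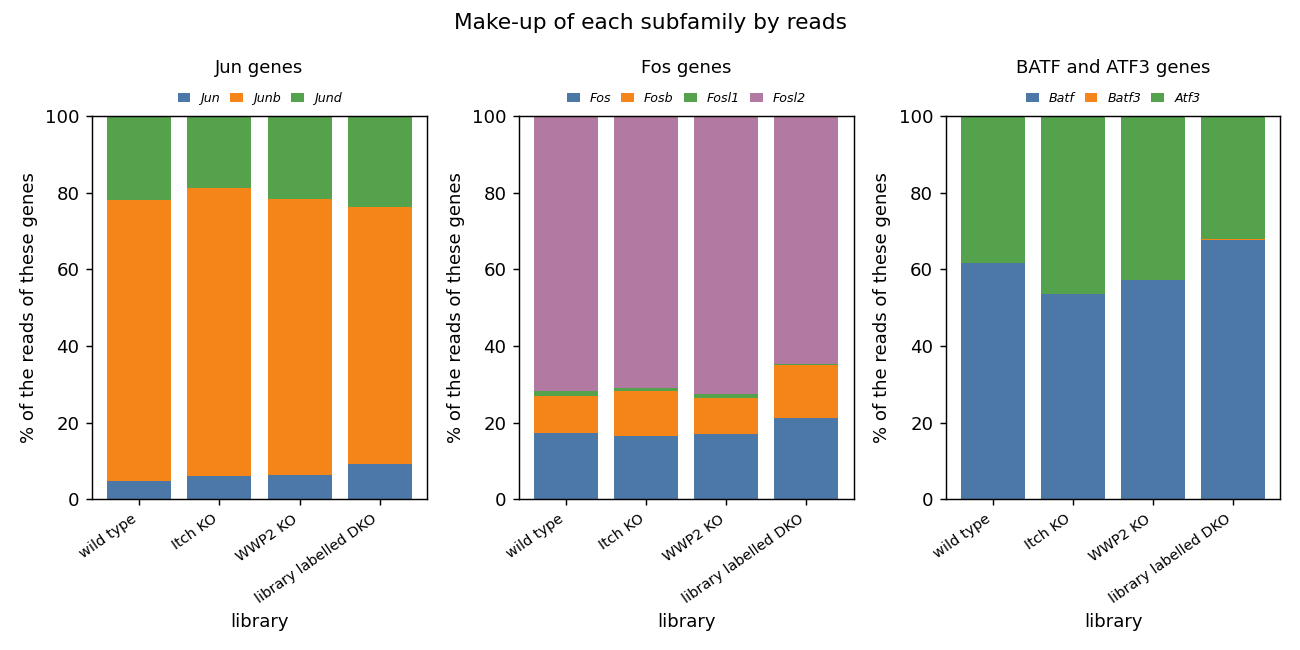
Share of each gene in the reads of the Jun genes, the Fos genes, and the BATF and ATF3 genes, as stacked bars that sum to 100 percent in each library. Junb and Fosl2 hold the largest share in every library, at 66.9% and 64.6% in the library labelled DKO.

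Levels were compared between genes per kilobase of exon, with exon lengths from GENCODE M21. In wild type the order was Junb at 281 CPM per kb, Batf at 119, Jund at 90.5, Fosl2 at 44.4, Fos at 33.1, Atf3 at 32.7, Jun at 10.4, Fosb at 10.4, Fosl1 at 2.60 and Batf3 at 0.216. The counting intervals met for Fos and Atf3 and for Jun and Fosb, and for no other neighbours. Junb, Batf and Jund were the 3 highest in every library. In the library labelled DKO Fos was level with Fosl2, at 100.1 and 98.4 CPM per kb. These lengths merge all transcripts of a gene, so a gene with a long untranslated end in use only in part is understated.

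Profiles over the 4 libraries were compared by Euclidean distance of centred log2 CPM. The search took in 7464 genes with a mean of at least 10 CPM, without unnamed gene models, and members were passed over as neighbours. Nearest to Junb were Cd44 (distance 0.08), Vps54 (0.11), Rilpl2 (0.13), Tiparp (0.13) and Itpk1 (0.13). Cd44, the hyaluronan receptor of activated T cells, had 6820 reads in the wild-type library, 10980 with Itch KO, 6587 with WWP2 KO and 12172 under the DKO label. Nearest to Jun were Arhgef10 (0.07), Rbms1 (0.13), Myo1d (0.13), Plxnc1 (0.16) and Stmn1 (0.18). With 4 points a profile carries little information.

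Other parts of the pathway were read from fixed lists. Over all genes, 4.89% were higher and 0.846% lower in Itch KO, and 12.3% and 6.34% in the library labelled DKO. Of 35 other factors with the same bZIP fold, 28 had enough reads. Of these, 5 passed as higher in Itch KO and 0 as lower, with a median log2 ratio of 0.12 beside -0.02 over all genes. For the library labelled DKO the counts were 8 and 1, with a median of 0.05 beside -0.03. Hlf, a circadian PAR factor, had 350 reads in Itch KO against 47, 7.44-fold higher (5.48 to 10.3). Nfil3, a repressor induced by cytokines, was 2.63-fold higher in Itch KO (2.27 to 3.04). Cebpa in the library labelled DKO was 16.1-fold higher (9.87 to 28.0) and Creb3l2 10.3-fold (8.79 to 12.0). Cebpa, with 17 reads in wild type, and Jdp2, also called higher there, with 26, reached the mean of 2 CPM only through that library. Cebpa, with 46 reads in Itch KO, was also among the 5 called higher in Itch KO, so that count includes it. Bach2, a repressor that competes with AP-1 for its sites, was the 1 lower member, 5.20-fold (4.89 to 5.53), with 5943 reads in the wild-type library, 3497 with Itch KO, 6428 with WWP2 KO and 1225 under the DKO label.

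Upstream, of 28 measured kinases and regulators of the PKC and MAP kinase pathways 1 passed as higher in Itch KO, Map3k5 at 2.09-fold (1.95 to 2.25), and 0 lower. That is below the 4.89% of all genes. The library labelled DKO had 2 of the 28 higher, also below the share of all genes, 12.3%, and 0 lower. They were Mapk3, which encodes ERK1, at 2.92-fold (2.43 to 3.54) and Map3k2 at 2.05-fold (1.91 to 2.19). The median log2 ratio of this list was 0.01 in each, beside -0.02 and -0.03 over all genes. Of 8 measured genes in a list of SRF, its coactivators, the ternary complex factors that act with it on Fos, and the related MEF2 factors, 0 passed in either library. This SRF list had a median log2 ratio of 0.07 in Itch KO and of 0.29 in the library labelled DKO. Elk3, a ternary complex factor named after its value was seen, missed the rule by its prior count in the library labelled DKO, at 2.0-fold (1.84 to 2.18). Of the 11 partners on composite sites 0 passed in Itch KO, and in the library labelled DKO 2 were higher (12.3% of all genes) and 1 lower (6.34%). The partners had a median log2 ratio of 0.28 in Itch KO and of -0.36 in the library labelled DKO. Nfatc2 there was 3.32-fold higher (3.05 to 3.62), Runx1 2.63-fold higher (2.43 to 2.84) and Irf4, the partner of BATF, 2.09-fold lower (2.06 to 2.11). Irf4 had 67135 reads in the wild-type library, 69910 with Itch KO, 66244 with WWP2 KO and 34474 under the DKO label, so Batf and Irf4 differed in opposite directions there. Of 14 ubiquitin ligases and adaptors that act on Jun proteins, 0 passed in Itch KO. In the library labelled DKO 1 was higher (12.3% of all genes), Nedd4, from 45 to 157 reads (3.25-fold, 2.32 to 4.64). The ligase list had a median log2 ratio of -0.04 in Itch KO and of -0.20 in the library labelled DKO.

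Downstream and in parallel, 0 of 23 other immediate early genes were at least 2-fold apart in Itch KO (4.89% of all genes were higher), with a median log2 ratio of 0.44 beside -0.02. The library labelled DKO had 3 higher and 2 lower, against 12.3% and 6.34% of all genes, with a median of 0.39 beside -0.03. Ier3 was 8.52-fold higher there (6.70 to 11.0) and Egr1 2.11-fold higher (2.06 to 2.17). Dusp2, a phosphatase that inactivates MAP kinases, was 2.22-fold lower (2.14 to 2.31) and the activation marker Cd69 2.53-fold lower (2.49 to 2.58). Of 19 measured genes known as AP-1 targets, 8 passed as higher in Itch KO and 0 as lower, against 4.89% and 0.846% of all genes, with a median of 0.69 beside -0.02. The counts were 8 and 5 in the library labelled DKO, against 12.3% and 6.34%, with a median of 0.31 beside -0.03. Il4, Il5, Il6 and Timp1 had 27, 11, 1 and 5 reads in wild type and 31, 11, 1 and 11 in WWP2 KO. They reached the mean of 2 CPM only through the libraries with an Itch label, so the filter favoured calling them higher. The list was also chosen with earlier results of these data known. Il5 and Il6 had the highest log2 ratios in both comparisons with wild type. Il5 had 11 reads for wild type, 2290 for Itch KO and 1990 in the library labelled DKO, and Il6 had 1, 57 and 641. Il2 and Tnf had the lowest log2 ratios in the library labelled DKO, 20.4-fold (18.0 to 23.1) and 4.27-fold (4.05 to 4.51) under wild type. Vegfa, with fewer reads, lay beside Tnf at 4.31-fold (3.41 to 5.51). In WWP2 KO, 1 gene of these 7 lists passed in either direction, Wwp2 itself, against 0.443% of all genes.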

How the data were processed

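RNA was counted in 4 libraries of stimulated splenic CD4+ T cells, 1 per genotype. The authors deposited raw read counts per gene symbol, with no normalization. Per the submitters' processing notes, reads were handled with TopHat 1.4.1, Bowtie 1.0.0 and HTSeq 0.7.1 on mm9. No annotation, strand setting or filter is named there. Groups were taken from the genotype labels.

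Counts were scaled by TMM factors (0.984 wild type, 0.983 Itch KO, 1.00 WWP2 KO, 1.03 labelled DKO) with edgeR 4.0.16 in R 4.3.3. The size rule and the additive model were computed on all genes with a mean of at least 2 CPM and tested on simulated data. Lists are described by counts and medians. DESeq2 1.42.0, other scalings, filters, prior counts and a 1.5-fold rule were tried. Python 3.11.15 read promoter sequences (RefSeq) and exon lengths (GENCODE M21), both of GRCm38 and matched by symbol. No coordinates of the counts are given. Named genes are the 10 members, Itch and Wwp2, up to 2 highest and 2 lowest genes of each list past the rule, and 5 nearest profiles to Junb and to the member of widest range. Prdx2, Ccdc85b, Il4, Timp1, Jdp2 and the cell markers named were chosen after their values were seen. The members and lists were chosen with earlier results of these data known.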

Additional observations from a re-analysis of the deposited data

Results flagged for a closer look

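Differences under the WWP2 label had opposite directions in the 2 backgrounds for 3 members, with counting intervals that excluded 1 in each. The share of all genes with such opposite directions was not counted, so the 3 are not read as a result about the members. Counting intervals are narrow at these read numbers and exclude 1 for small differences. Junb was 0.918-fold in WWP2 KO against wild type and 1.05-fold in the library labelled DKO against Itch KO. Jund was 0.931-fold and 1.49-fold, and Batf was 0.899-fold and 1.47-fold. The difference between the backgrounds was not tested between replicates, since each value compares 1 library with 1 other, and the library labelled DKO held Wwp2 reads.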

How the results depend on the processing

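Under the 1.5-fold rule the members past it numbered 7 in Itch KO against wild type (3 at 2-fold), where 8.79% of all genes were higher. In the library labelled DKO against Itch KO they numbered 4 (0 at 2-fold), where 19.5% of all genes were higher and 14.5% lower. Itch KO against WWP2 KO had 7 (2 at 2-fold). The share of all genes at 1.5-fold is not given for that pair, so its 7 are not read as a result about the members. With DESeq2 size factors, total counts, no low filter, a minimum of 10 CPM or a prior count of 0.5, the number in each of the 6 pairs stayed within 1.5 times its main value. Scaling without the library labelled DKO, an alternative chosen after seeing the data, kept the number within 1.5 times in the 3 pairs that do not use it, and all 30 log2 ratios of members within their counting intervals. With total counts only, 8 of 60 log2 ratios of members moved past their counting intervals, all of them in pairs with the library labelled DKO, and none reversed. The Itch term of the additive model called 0 of 9 members with edgeR (1 of 9926 genes), 6 of 10 without a filter on low counts (542 of 15454) and 7 of 9 with DESeq2's Wald test (591 of 9926). It called 0 with DESeq2 size factors and with the Itch term alone, and for Junb the adjusted p ranged from 0.0453 to 0.267 over these alternatives. The cause was not tested. No paired analysis was possible because each group has 1 library, all with the number 1. Leaving out a library leaves the additive model without residual degrees of freedom. Depth limits Fosl1 and Batf3 alone among the members.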
